A study of Mus musculus with 32 samples.

Results

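The comparison described here is dTAG against DMSO in XEN cells, mouse stem cells derived from extraembryonic endoderm, whose cohesin subunit Rad21 carries a degron tag. It was read as the expression of X-linked genes from the active X (Xa) and the inactive X (Xi). Its members are the 247 genes whose Xa plus Xi level averaged 1 FPKM or more over the dTAG and DMSO columns, of 953 genes in the Rad21 table, 389 of them above 0 in any column, and 1006 genes listed in any table of the study. FPKM is a fragment count scaled by transcript length and by the total of the library. The study holds 32 RNA samples of XEN cells in 12 groups, all from the cross 129S1/SvImj X JF1/Ms, whose sequence differences tell the parental X chromosomes apart. The 4 DMSO and 4 dTAG samples used here carry a Rad21 degron and come from 2 clones, with 2 samples of each treatment in each clone. DMSO is the solvent control, and both groups carry the tag, so neither is untagged. Groups set beside them are WT cells (3 samples), XRRb_XaKO and XRRc_XaKO (2 samples each) and Ctcf degron cells with DMSO or dTAG (2 samples each). All of these except Ctcf dTAG are called control columns below. However, XRRb_XaKO and XRRc_XaKO are labelled as knockouts of XRRb or XRRc on Xa. The duration of dTAG exposure is not given in the labels for these samples. The authors deposited 1 merged column for each treatment and allele, so the clones cannot be separated, the spread between samples and the depth are unknown, and no SD, interval or test accompanies any value. The columns may also be scaled differently from each other.

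As background, cohesin is a ring built from Smc1a, Smc3, Rad21 and a Stag subunit. It holds sister chromatids together until mitosis and extrudes chromatin loops, which often end where CTCF is bound. A degron tag lets the small molecule dTAG send the tagged protein to the proteasome, so that the protein is lost without a change in its gene. In female cells the noncoding RNA Xist coats one X and silences most of its genes, while escape genes stay active on that X. Rad21 itself is autosomal and the tables hold X-linked genes, so the extent of its depletion was not analysed here.

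The defining XEN markers (Gata4, Gata6, Sox17, Sox7, Dab2 and Pdgfra) are autosomal too and were not analysed here. Of 7 X-linked extraembryonic markers in the table, 4 were at 0 in both columns (Rhox6, Rhox9, Xlr3a and Xlr4a). The summed level of the 7 was 149 FPKM under DMSO and 94.6 FPKM under dTAG. Trap1a, a tumour antigen gene used as an extraembryonic marker, stood at 60.8 and 69.1 FPKM, the glypican gene Gpc3 at 24.4 and 12.3 FPKM, and Cited1 at 63.6 and 13.1 FPKM. Summed markers of other cell types were low in both columns, with 0.562 and 0.705 FPKM for 6 haematopoietic genes, 0.050 and 0.026 FPKM for 5 neuronal genes, and 2.72 and 3.30 FPKM for 5 trophoblast genes. Among 4 pluripotency genes, Nr0b1 and Fthl17 were at 0 and Tex13 gave 6.66 of 6.66 and 6.82 of 7.26 FPKM. In bulk RNA, fewer cells of a type and less RNA per cell cannot be told apart.

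Promoters of 4 genes are printed because these genes mark the ends of the comparison. Itm2a had the largest Xa rise and Dkc1 the largest Xa fall among genes above 0 in both columns, Eda2r rose on both alleles and Cited1 fell on both. Each run holds the 250 bases upstream of the first start listed for the gene in RefSeq, 5′ to 3′ on the gene's strand, in build GRCm38.p6. Capitals mark a match to a core of the CTCF motif (CC, any 3 bases, AG, any 2 bases, GG) or to TATAAA, the TATA box, on either strand. The Itm2a run is chrX:107403361-107403610 on the minus strand, Eda2r chrX:97377210-97377459 on the minus strand, Dkc1 chrX:75095604-75095853 on the plus strand and Cited1 chrX:102252182-102252431 on the minus strand.
Itm2a: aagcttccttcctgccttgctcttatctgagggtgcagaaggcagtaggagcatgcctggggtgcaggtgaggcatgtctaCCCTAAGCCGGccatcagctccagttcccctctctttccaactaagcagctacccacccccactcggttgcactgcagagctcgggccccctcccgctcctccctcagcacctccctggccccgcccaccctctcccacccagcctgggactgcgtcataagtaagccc
Eda2r: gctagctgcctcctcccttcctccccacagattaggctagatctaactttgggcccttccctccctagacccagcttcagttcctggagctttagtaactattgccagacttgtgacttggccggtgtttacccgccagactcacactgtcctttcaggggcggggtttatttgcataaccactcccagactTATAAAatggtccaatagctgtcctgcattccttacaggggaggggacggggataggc
Dkc1: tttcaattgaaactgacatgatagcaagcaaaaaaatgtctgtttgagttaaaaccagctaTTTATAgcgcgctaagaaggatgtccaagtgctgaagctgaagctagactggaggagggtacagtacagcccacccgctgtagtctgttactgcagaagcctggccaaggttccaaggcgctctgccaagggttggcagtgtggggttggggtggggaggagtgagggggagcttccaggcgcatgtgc
Cited1: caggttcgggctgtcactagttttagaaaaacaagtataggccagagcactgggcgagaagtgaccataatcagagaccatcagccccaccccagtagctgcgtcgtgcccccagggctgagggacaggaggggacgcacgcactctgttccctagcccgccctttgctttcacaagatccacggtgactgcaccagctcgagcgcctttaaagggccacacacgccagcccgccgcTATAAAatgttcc
Itm2a held a CTCF core match ending 158 bases before the start. TATAAA ended 52 bases before the start in Eda2r and 7 bases before it in Cited1, and in Dkc1 it lay on the other strand, ending 183 bases before the start. Over windows of the same length, the CTCF core was found in 19.9% of 27025 promoters of all chromosomes and in 23.9% of the 218 tested X-linked genes with a RefSeq promoter. It was found in 7 of 30 promoters of genes that fell on Xa (23.3%) and in 5 of 14 of genes that rose (35.7%). TATAAA was found in 12.97% of all promoters, in 9.17% of those of tested genes, in 4 of 30 and in 1 of 14. These matches describe letters in a window, not bound sites.

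On Xa the comparison was tilted towards lower values with dTAG. The median Xa level was 6.09 FPKM under DMSO and 4.57 FPKM under dTAG, and summed Xa levels were 7657 and 6212 FPKM. Summed Xi levels were 873 and 951 FPKM, with Ndufa1 (42.3 and 98.8 FPKM) and Rps4x (524 and 541 FPKM) the largest gains. Changes were taken as the difference of log2(FPKM + 0.5), dTAG minus DMSO, a scale that understates the change of low genes, and "rose" or "fell" means a difference of 1 or more. By that rule 16 of 247 genes (6.48%) rose on Xa and 37 (15%) fell. The median Xa change was -0.26, with quartiles of -0.72 and 0.13, and 164 genes lay below 0 against 82 above. Relative to that median, 22 genes rose (8.91%) and 26 fell (10.5%), and after scaling both columns to equal median Xa level, a factor of 1.33, 27 rose and 19 fell. The balance of rises and falls therefore depends on how the columns were scaled, while the order of genes changes only through the pseudocount. In 4 equal bins by level, the lowest had a median Xa change of -0.03, with 5 rises and 3 falls, and the others had medians of -0.26, -0.50 and -0.34, with 13, 14 and 7 falls.

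**Figure D1:**
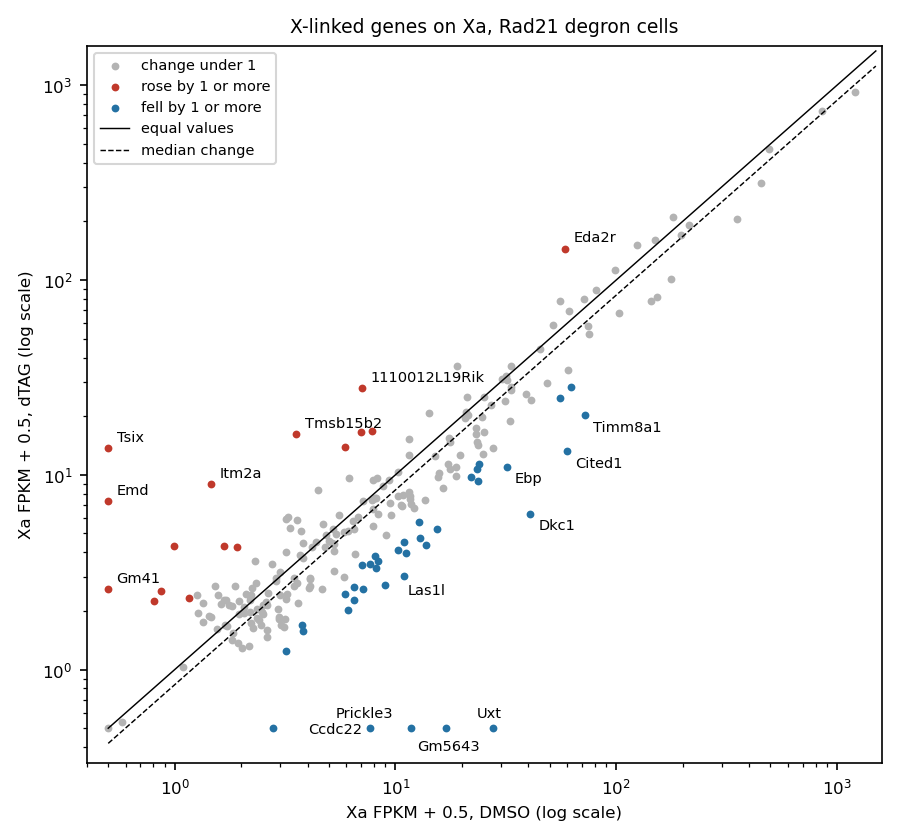
Xa level of each of the 247 tested genes with DMSO (x axis) and dTAG (y axis), as FPKM + 0.5 on log axes, 1 point per gene and 1 merged column per treatment. Red points rose and blue points fell by 1 or more on the log2 scale, the solid line marks equal values and the dashed line the median Xa change of -0.26. Most points lie below the solid line, and 5 genes that fell are at the bottom edge because they were listed at 0 with dTAG.

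Genes of ribosome biogenesis and of rRNA or tRNA processing lay lowest of the 18 gene lists. All 9 tested members were below 0 on Xa, beside 66.4% of all tested genes. Of the 9, 5 fell (55.6%, against 15% of all tested genes) and 0 rose. The median change was -1.03 against -0.26 over all tested genes. Dkc1, the pseudouridine synthase of H/ACA ribonucleoproteins that also stabilises telomerase RNA, stood at 40.4 FPKM with DMSO and 5.83 FPKM with dTAG, a change of -2.69. It was listed at 0 on Xi in both columns. Las1l, which acts in cleavage of the spacer of pre-rRNA, went from 10.4 to 2.52 FPKM on Xa (-1.85) and from 5.26 to 2.202 FPKM on Xi (-1.09), so it fell on both alleles. Utp14a, a component of the small-subunit processome, went from 10.7 to 3.47 FPKM on Xa (-1.49), and stood at 3.06 and 5.21 FPKM on Xi. The tRNA methyltransferase gene Ftsj1 (9.79 to 3.59 FPKM, -1.33) and the nucleolar GTPase gene Gnl3l (6.54 to 2.94 FPKM, -1.03) were the other members that fell on Xa. Tsr2, a ribosomal protein chaperone gene, changed by -0.88, and Hsd17b10, which also encodes a subunit of mitochondrial RNase P, by -0.01. Relative to the median of all genes, 4 of the 9 still passed the rule, and at equal median level 3 did.

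Sterol and lipid metabolism came next, with 3 of 6 tested genes fallen (50%, against 15% of all tested genes), 0 risen and a median of -0.97. Ebp, the isomerase of late cholesterol synthesis, went from 31.4 to 10.5 FPKM on Xa (-1.53), and Nsdhl, an enzyme of sterol demethylation, from 10.4 to 4.004 FPKM (-1.28). Nsdhl also fell on Xi, from 1.06 to 0.087 FPKM. Acsl4, which couples long polyunsaturated fatty acids to coenzyme A, went from 5.59 to 1.51 FPKM (-1.60). All 3 also passed the rule relative to the median of all genes, and 2 of them did at equal median level. Mbtps2, the protease that releases sterol-sensing transcription factors, changed by -0.67, and Porcn, an acyltransferase for Wnt proteins, by -0.41.

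Of 20 genes of mRNA processing, export and decay, 6 fell on Xa (30%, against 15% of all tested genes) and 0 rose. Their median was -0.61, and 17 lay below 0, beside 66.4% of all tested genes. Cstf2, a subunit of the cleavage stimulation factor for 3′ ends, went from 8.48 to 2.22 FPKM (-1.72). Rbmx, an hnRNP protein gene, went from 12.4 to 4.22 FPKM (-1.45), Pqbp1 from 23.5 to 10.8 FPKM (-1.08), and the RNA helicase gene Ddx3x from 55.2 to 24.4 FPKM (-1.16). The other members that fell, Rbm10 and Nono, have near-identical copies on other chromosomes, so their values are uncertain. Relative to the median of all genes 3 of the 6 passed the rule. Translation and ribosomal protein genes had a median of -0.58, and all 10 lay below 0, but only Ddx3x passed the rule (10%). Eif1ax, a translation initiation factor gene, stood at 144 and 77.1 FPKM (-0.89).

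Metabolic and mitochondrial genes differed in their medians. Enzymes of glycolysis and of pentose, purine and polyamine metabolism had a median of -0.52. Of these, 2 of 10 fell (20%, against 15% of all tested genes). The 2 were Prps1, which makes the ribose donor for nucleotides (21.5 to 9.26 FPKM, -1.17), and Sms, spermine synthase, which has a near-identical copy (6.004 to 2.14 FPKM, -1.30). Mitochondrial respiration and import genes had a median of -0.18, and only 1 of 19 fell (5.26%). That gene, Timm8a1, an import chaperone of the intermembrane space, went from 71.6 to 19.8 FPKM (-1.83). Of the 19, 12 lay below 0, beside 66.4% of all tested genes. Cox7b, a complex IV subunit gene, stood at 180 and 210 FPKM and Ndufb11, a complex I subunit gene with a near-identical copy, at 98.45 and 112 FPKM, neither past the rule and both picked after their values were seen. Lysosome, endosome and autophagy genes had 0 of 17 past the rule in either direction, beside 21.5% of all tested genes, and a median of -0.13. Lamp2, a lysosomal membrane protein gene, was the highest of them, at 18.6 and 35.8 FPKM (0.93).

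Chromatin and transcription genes, the longest list with 38 tested, had 6 falls, 1 rise and a median of -0.36, and its share of falls (15.8%) was near the 15% of all tested genes. Cited1, a coregulator that binds CBP and p300, went from 59.5 to 12.7 FPKM on Xa (-2.19) and from 4.05 to 0.453 FPKM on Xi (-2.25). Hcfc1, a cofactor of cell cycle transcription, went from 7.18 to 2.97 FPKM (-1.15), and Ercc6l, a helicase of anaphase DNA bridges, from 5.97 to 1.76 FPKM on Xa (-1.51) and from 1.93 to 0.662 FPKM on Xi. The member that rose was the deubiquitinase gene Usp11, from 0.665 to 1.83 FPKM (1.00). Of 14 ubiquitin pathway genes, the ligase gene Pja1 (13.2 to 3.86 FPKM, -1.65) and Brcc3, a deubiquitinase of DNA repair complexes (12.3 to 5.23 FPKM, -1.16), fell. Their share of the list (14.3%) was near the 15% of all tested genes, and the list median was -0.39. Among genes outside every list, Apex2, an endonuclease of base excision repair (7.87 to 3.13 FPKM, -1.21), and Pola1, the catalytic subunit of the polymerase that primes replication (7.57 to 3.35 FPKM, -1.07), fell. Both were named after their values were seen.

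**Figure D2:**
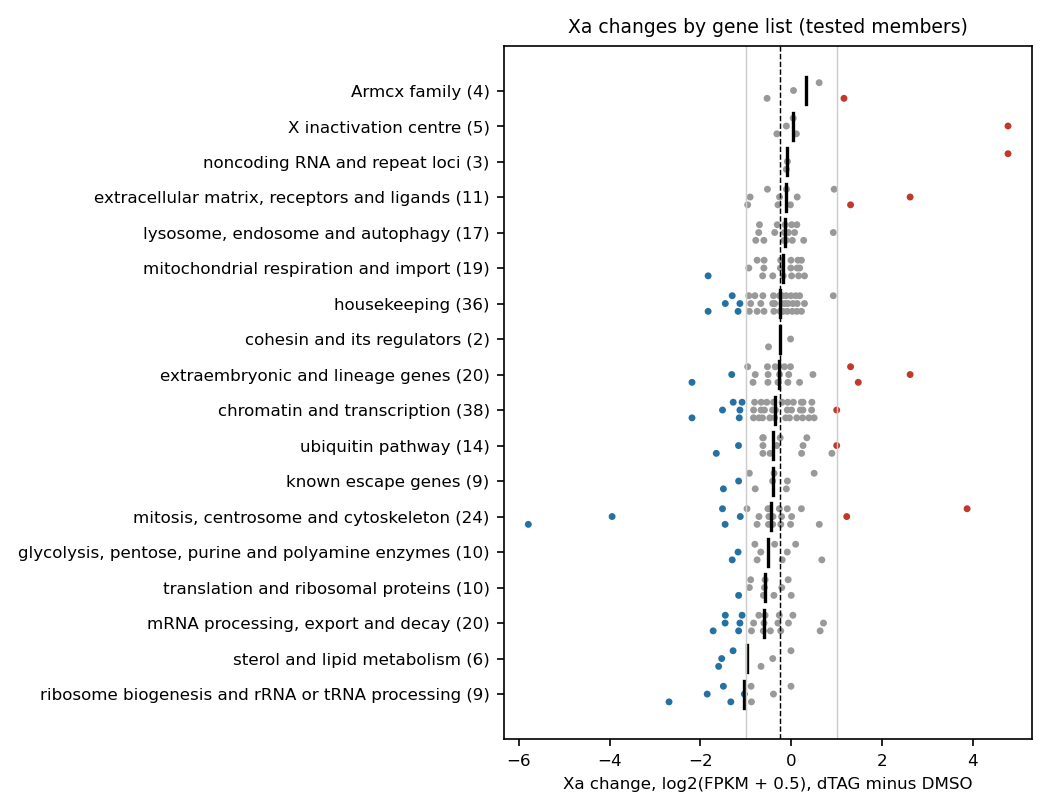
Xa change of each tested gene (x axis, log2(FPKM + 0.5), dTAG minus DMSO) in 18 gene lists (y axis, number of tested members in parentheses), 1 point per gene. Black bars are list medians, the dashed line is the median of all tested genes (-0.26), grey lines mark changes of -1 and 1, and a gene can be in several lists. Ribosome biogenesis (-1.03) and sterol and lipid metabolism (-0.97) have the lowest medians, and the X inactivation centre (0.04) and Armcx lists (0.33) lie above 0.

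Genes of cohesin itself were near the middle of the distribution. Smc1a, the ring subunit encoded on the X, stood on Xa at 10.99 FPKM (DMSO) and 7.62 FPKM (dTAG), a change of -0.50, and Stag2, the X-linked Stag subunit, at 8.30 and 8.21 FPKM (-0.01). Both were at 0 on Xi in both columns. Hdac8, the deacetylase of Smc3, averaged below 1 FPKM and was not a member. The mitosis, centrosome and cytoskeleton list, which holds Smc1a and Stag2, had 5 falls and 2 rises among 24 genes, with a median of -0.44. Its falls made up 20.8%, against 15% of all tested genes. Haus7, a subunit of the augmin complex of spindle microtubules, went from 22.9 to 10.2 FPKM (-1.12), and Dynlt3, a dynein light chain gene, from 5.42 to 13.3 FPKM (1.22). The other members past the rule were Ercc6l, Rbm10, Uxt, Ccdc22 and Emd, and the last 3 were at a listed 0 in 1 column.

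Several of the largest changes on the log2 scale are moves to or from a listed 0, which can be a failed estimate. On Xa, 5 genes were listed at 0 with dTAG and above 0 with DMSO. Uxt, a prefoldin-like cofactor gene, went from 27.2 FPKM to 0, although it was at 25.1 to 52.8 FPKM (Xa plus Xi) in the 4 control columns of the other tables and at 25.8 FPKM with Ctcf dTAG. The tables were normalized separately, so such levels are set side by side only to show presence. Gm5643 went from 16.5 FPKM to 0, and Ccdc22, a component of endosomal sorting complexes, from 7.20 FPKM to 0 on Xa and from 1.69 FPKM to 0 on Xi. The deubiquitinase gene Usp51 went from 2.29 FPKM to 0. Prickle3, a planar cell polarity gene, went from 11.3 FPKM to 0, and it was also listed at 0 in WT, XRRb_XaKO, XRRc_XaKO and Ctcf dTAG. In the other direction Emd, which encodes the nuclear envelope protein emerin, went from 0 to 6.83 FPKM on Xa, and it was at 3.50 to 9.17 FPKM in those 4 controls. Gm41 went from 0 to 2.097 FPKM and Tsix from 0 to 13.2 FPKM on Xa, where Tsix stood at 44.5 and 46.2 FPKM on Xi. Tsix lies antisense to Xist and the libraries keep no strand, so reads of the pair cannot be told apart. Uxt and Gm5643 have near-identical copies elsewhere. Without the 8 genes at 0 on both alleles in 1 column, 14 genes rose and 32 fell on Xa.

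Among genes that rose on Xa, Itm2a, a membrane protein gene with its promoter printed above, went from 0.958 to 8.45 FPKM on Xa (2.62), with 0 on Xi in both columns. Tmsb15b2, of the thymosin beta family of actin-binding proteins, went from 3.05 to 15.6 FPKM (2.18), and 4933402E13Rik from 0.492 to 3.84 FPKM (2.13). The gene 1110012L19Rik went from 6.54 to 27.3 FPKM on Xa (1.98) and from 0 to 0.651 FPKM on Xi. Eda2r, a receptor of the tumour necrosis factor family and a known p53 target, was the most abundant gene that rose, from 58.1 to 144 FPKM on Xa (1.31), and it rose on Xi as well. Aff2 (0.364 to 2.04 FPKM, 1.56), Tsga8 (0.310 to 1.75 FPKM, 1.48) and Fam122b (1.17 to 3.79 FPKM, 1.36) were low in both columns. Mospd1 (1.25), Gprasp1 (1.16) and Sh3bgrl (1.11) were the remaining members above the rule.

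Among 20 extraembryonic and lineage genes, 3 rose (Eda2r, Itm2a and Tsga8) and 2 fell (Cited1 and Mum1l1, 10%), with a median of -0.27. Over all tested genes 6.48% rose and 15% fell. Bex1 stood at 354 and 204 FPKM on Xa (-0.79) and Bex2 at 55.2 and 77.1 FPKM (0.48), although both belong to the same small family. Of 11 genes for extracellular matrix, receptors and ligands, Eda2r and Itm2a rose, 0 fell and the median was -0.10. Both are also in the lineage list. Housekeeping genes, a list of 36, had 5 falls (13.9%), 0 rises and a median of -0.25, close to the 15% and -0.26 of all tested genes. Over all lists together, 8 of 181 genes rose and 27 fell, with a median of -0.35. Of the 66 genes in no list 8 rose and 10 fell, with a median of -0.02. These counts stand beside the same 6.48% and 15% of all tested genes.

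In gene order along the X, changes on Xa were not gathered in 1 stretch. The 246 genes that could be placed were cut into 4 equal bins from the centromere, which held 2, 6, 6 and 2 rises and 10, 8, 8 and 10 falls. Of 125 genes proximal to Dxz4, the repeat locus at the boundary of the megadomains of the inactive X, 8 rose and 19 fell. Between Dxz4 and Xist 4 of 36 rose and 6 fell, and distal of Xist 4 of 85 rose and 11 fell. Over all 247 tested genes 6.48% rose and 15% fell. Neighbouring tested genes past the rule in the same direction numbered 3 pairs, Ccdc22 with Prickle3, Fam122b with Mospd1, and Gm5643 with Acsl4. Share gains of 10 percentage points or more, described below, numbered 9, 1, 4 and 4 in these bins.

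**Figure D3:**
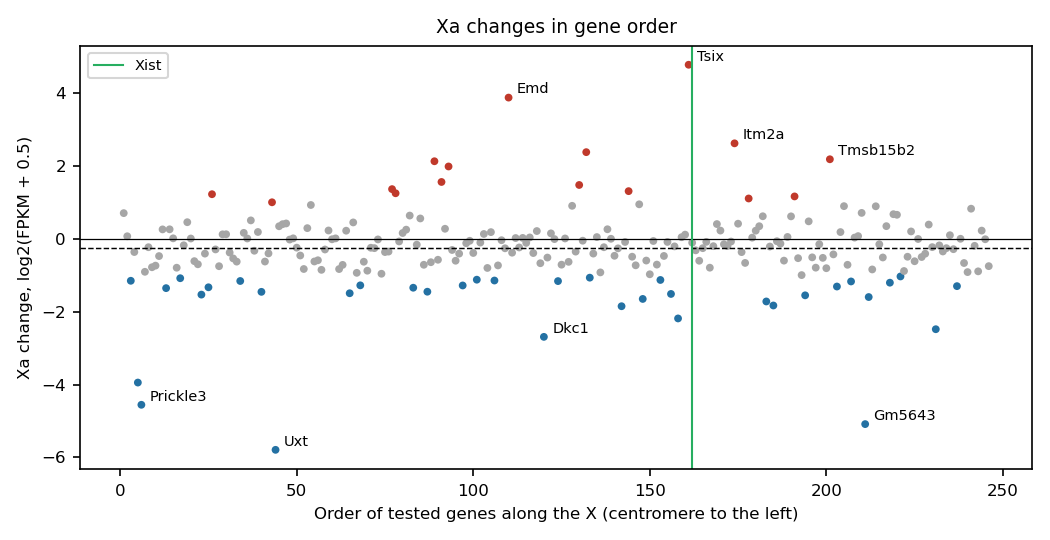
Xa change of 246 tested genes (y axis, log2(FPKM + 0.5), dTAG minus DMSO) in their order along the X (x axis, rank from the centromere), 1 point per gene. Red points rose and blue points fell by 1 or more, the dashed line is the median Xa change and the green line marks Xist. Rises and falls occur in each of the 4 bins of genes, with 10 falls in the first and in the last.

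The Xi share, Xi over Xa plus Xi, was used next because a common scaling of both alleles of a column cancels in it. Most genes were silent on Xi by this measure, with 179 of 247 at 0 on Xi in both columns. A share of 10% or more was found for 33 genes with DMSO and 37 with dTAG, 30 of them in both. The summed Xi share of the tested genes was 10.2% and 13.3%, and 3.90% and 5.66% without Xist, Tsix and Rps4x. Of 239 genes with a share in both columns, 18 gained 10 points or more (7.53%) and 6 lost as much (2.51%). For genes silent on Xi in both columns the median Xa change was -0.20, with 9 rises and 22 falls, so falls on Xa were not limited to genes with Xi expression.

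Genes expressed on Xi elsewhere in the study were taken as a set. It holds 31 genes at 10% or above in every control column of the other tables, a choice that uses no Rad21 column. These columns are WT, the Xa knockouts XRRb_XaKO and XRRc_XaKO, and Ctcf degron with DMSO. Of the 31, 28 were tested here. Gm6568 was at 0 on both alleles with DMSO and so had no share there. Without it, Xist and Tsix, 25 remained. In 12 of the 25 the share gained 10 points or more and in 3 it lost as much, and the median difference was 9.29 points. The other 6 gains were among 212 genes outside the set (Gripap1, Mid1ip1, Pja1, Tceal8, Tmem29 and Tsga8). Of those 212, 173 had a share of 0 in both columns. Shares above 50% numbered 3 with DMSO and 7 with dTAG. The dTAG share exceeded all 4 of those control columns for 18 genes, the DMSO share for 9. It lay below all 4 for 2 genes with dTAG and 6 with DMSO. Among the 13 genes at 5 FPKM or more in both columns, all 13 had a higher share with dTAG. That count depends on a filter on the levels themselves. It leaves out Gpkow and Clcn5, above 5 FPKM with DMSO only, whose shares were lower with dTAG. Cstf2, Ftsj1, Las1l and Nkap, left out in the same way, had higher shares. Armcx5 and Mbtps2, with lower shares, were below 5 FPKM in both columns. With a share rule of 20% in place of 10%, which leaves 17 genes, the median difference was 4.24 points.

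The same 25 genes also differed between control columns. Rad21 degron with DMSO lay above Ctcf degron with DMSO for 18 genes and below for 7, with a median difference of 10.5 points, as large as the difference between dTAG and DMSO. Against WT it lay above for 13 and below for 12, with a median of 0.08 points. The next 2 comparisons are over 26 genes, because Gm6568 has a share in those columns. Ctcf dTAG against DMSO gave 10 genes above, 15 below and a median of -0.61 points, and XRRc_XaKO against XRRb_XaKO gave 8 above, 17 below and -1.53 points. Shares in the Rad21 table are also coarse. Of shares between 0 and 100%, 18 of 48 with DMSO and 28 of 54 with dTAG equalled a ratio of whole numbers with a denominator up to 40, within 1e-05, against 3 of 63 and 2 of 67 in the Ctcf columns. The part of this coarseness in the share differences was not tested.

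Both alleles differed among genes with higher shares. Over the 25 genes the median Xa change was -0.46 and the median Xi change -0.08. On Xa 6 of them fell and 0 rose, beside 15% and 6.48% of all tested genes. On Xi 1 fell and 4 rose. Of the 68 tested genes with any Xi level, 26.5% passed the rule on Xi in either direction. In 9 genes with a higher share, Xa was lower and Xi higher, in 10 both were lower, and in 2 both were higher. Utp14a belongs to the first kind, with Xi levels of 3.06 and 5.21 FPKM beside its fall on Xa. Wdr45, a scaffold of autophagosome formation, stood at 18.3 and 10.5 FPKM on Xa and rose from 6.11 to 15.2 FPKM on Xi. Ndufa1, a complex I subunit gene, is of the third kind, at 124 and 151 FPKM on Xa and at 42.3 and 98.8 FPKM on Xi (1.22), and its share was 25.5% and 39.5%. The share of Tceal8, outside the set, went from 12.7% to 26.7%, with Xi levels of 10.8 and 18.97 FPKM, and that of 1810030O07Rik from 22.8% to 40.3%.

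Known escape genes had lower Xa levels with dTAG in 8 of 9 cases, most of them within the rule, and 66.4% of all tested genes were lower too. Ddx3x stood at 29.8 and 23.2 FPKM on Xi (-0.35) beside its fall on Xa. Eif2s3x, a subunit of initiation factor 2, stood at 18.3 and 9.39 FPKM on Xa (-0.92) and at 16.4 and 9.77 FPKM on Xi (-0.71), so its share was 47.3% and 51.0%. Kdm5c, a demethylase of histone H3 lysine marks, was at 2.74 and 1.94 FPKM on Xa and at 1.05 and 1.29 FPKM on Xi. Kdm6a, another histone demethylase known as an escape gene, was listed at 0 on Xi in both columns and at 1.38 and 2.17 FPKM on Xa. Of the 9 tested genes on the escape list, 2 fell on Xa and 0 rose, with a median of -0.41, beside 15% fallen and a median of -0.26 over all tested genes.

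**Figure D4:**
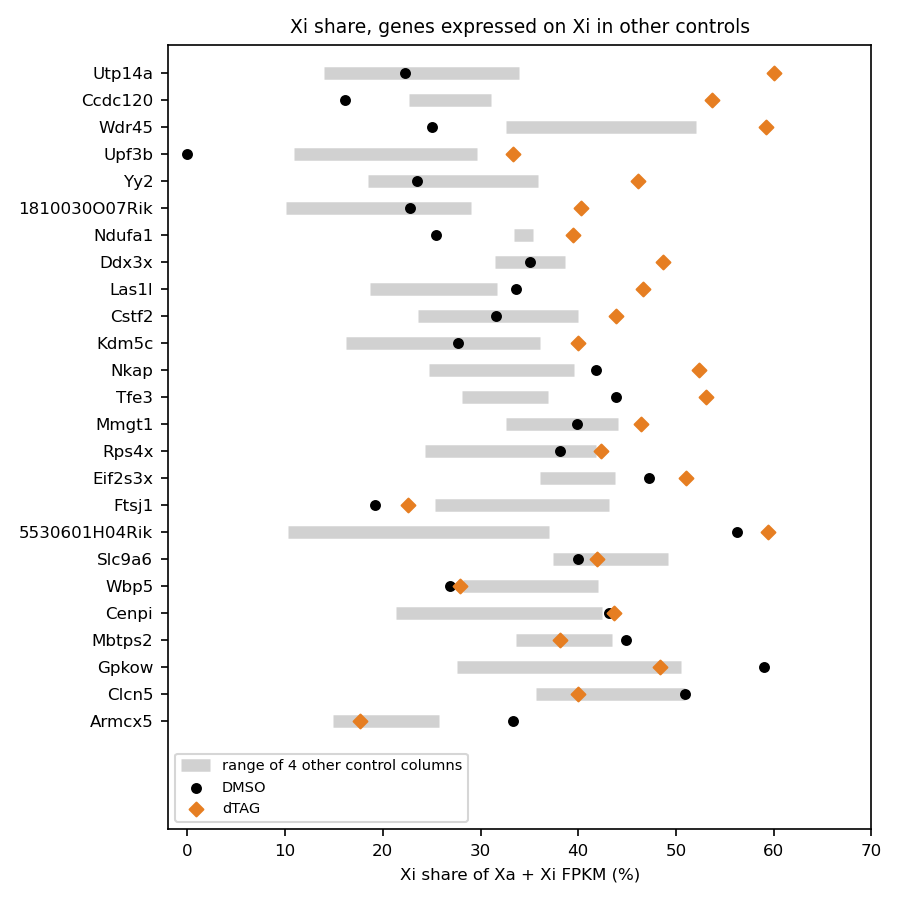
Xi share (x axis, Xi as a percentage of Xa plus Xi FPKM) of the 25 genes expressed on Xi in the other control columns (y axis), ordered by the dTAG minus DMSO difference. Black circles are DMSO, orange diamonds dTAG, 1 merged column each, and grey bars span the 4 control columns of the other tables. The diamond lies to the right of the circle for 21 genes and beyond the grey bar for 18.

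By the size rule 10 of 247 genes rose (4.05%) and 8 fell (3.24%) on Xi, where genes at 0 in both columns could not change. Of the 68 genes with any Xi level, those 18 make up 26.5%. Relative to the Xa median, 17 of 247 rose on Xi (6.88%) and 4 fell (1.62%). On Xi, Eda2r went from 0.410 to 9.42 FPKM, and its Xi share was 0.70% with DMSO and 6.13% with dTAG, beside the rise on Xa. Gm6568, at 0 on Xa in both columns, and Tsga8 went from a listed 0 on Xi to 2.61 and 1.46 FPKM, and Ngfrap1 from 0 to 0.985 FPKM beside an Xa level of 316 FPKM. Pja1 went from 0 to 2.32 FPKM on Xi while it fell on Xa, and its share from 0 to 37.5%. Upf3b, a factor of nonsense-mediated decay, went from 0 to 3.67 FPKM on Xi, at 10.3 and 7.33 FPKM on Xa. Its Xi share was 10.9% to 29.6% in the control columns of the other tables. As on Xa, a listed 0 can be a failed estimate. Ccdc120, a centrosomal protein gene, went from 0.690 to 2.83 FPKM on Xi.

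Falls on Xi were of low levels, apart from 3 genes. Morf4l2, a subunit of histone acetyltransferase complexes with near-identical copies elsewhere, went from 5.86 FPKM to 0 on Xi, beside 176 and 100 FPKM on Xa. Cited1 and Las1l, described above, were the others with more than 4 FPKM on Xi with DMSO. Sms and Rbm3, a cold-inducible RNA-binding protein gene, were at 0.572 and 0.567 FPKM with DMSO and at 0 with dTAG. The largest share loss among genes at 5 FPKM or more in both columns was that of Tsix, from 100% to 77.8%. Losses of Morf4l2 (3.23 points), Cited1 (2.92 points), G6pdx (1.59 points), Rbm3, Pdha1 and Stard8 were smaller. Among 22 genes that reached 1 FPKM on Xi under both treatments, Tsix left out, the Xi change exceeded the Xa change in 20. That count depends on a filter on the Xi levels themselves. It leaves out Cited1, Nsdhl, Mbtps2 and Morf4l2, below 1 FPKM on Xi with dTAG, whose Xi change lay below the Xa change. Ercc6l and Ccdc22, left out in the same way, had the Xi change above. Genes that reached 1 FPKM only with dTAG, such as Upf3b and Pja1, were left out too.

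Xist stood at 28.0 FPKM on Xi with DMSO and 35.6 FPKM with dTAG, which is a share of 99.7% and 99.9%. Its Xi change of 0.34 lay within the size rule. Rlim, the ubiquitin ligase that activates Xist, stood at 24.2 and 19.3 FPKM on Xa (-0.32). Over the 5 tested genes of the X inactivation centre the median Xa change was 0.04, and only Tsix passed the rule.

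Treatment with dTAG of cells with a degron on CTCF, which stops cohesin at loop ends, was set beside it. These Ctcf degron cells, 2 samples with DMSO and 2 with dTAG for 48 h, have their own table and controls, whose columns name the treatment only. There 15 of 277 genes rose on Xa (5.42%) and 2 fell (0.722%), and on Xi 1 rose and 1 fell (0.361% each). For the 240 genes tested in both, the median Xa change was -0.26 with Rad21 and 0.23 with Ctcf degradation. Across these genes, which are not independent replicates, Pearson's r was 0.27 and Spearman's rho 0.26. Of the 240, 50 were past the rule with Rad21 (13 rises, 37 falls) and 15 with Ctcf (13 rises, 2 falls). In both, 1 gene rose, 4933402E13Rik (2.13 and 2.23), and 1 fell, Prickle3. The fall of Prickle3 was to a listed 0 in both tables, which can be a failed estimate. It was also listed at 0 in WT, XRRb_XaKO and XRRc_XaKO. So few genes passed the rule with Ctcf that this overlap says little. Whether it differs from that of unrelated calls was not tested. Dkc1 was at 33.3 and 28.3 FPKM on Xa in the Ctcf columns (-0.23), Timm8a1 at 46.2 and 46.4 FPKM (0.01) and Ebp at 31.0 and 28.6 FPKM (-0.11). Cited1 changed by 0.76 there, Itm2a was not tested in that table, and Eda2r was at 22.2 and 23.7 FPKM. Lamp2 stood at 18.6 and 35.8 FPKM in the Rad21 columns and at 18.97 and 36.4 FPKM in the Ctcf columns, short of the rule in both. No difference between the tables was tested.

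**Figure D5:**
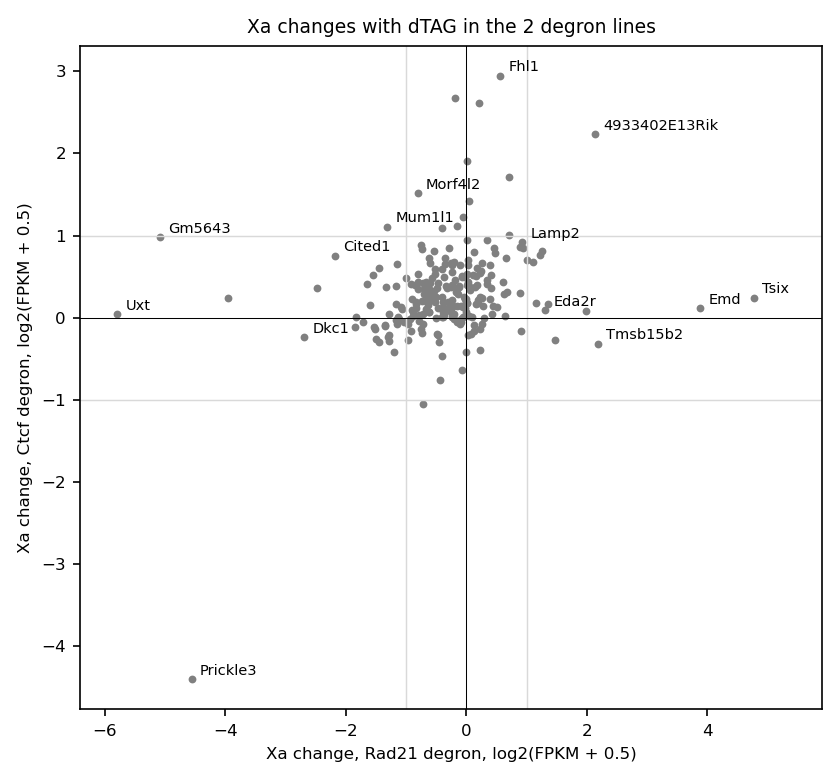
Xa change with dTAG in Rad21 degron cells (x axis) and in Ctcf degron cells (y axis), log2(FPKM + 0.5), for 240 genes tested in both tables, 1 point per gene. Grey lines mark changes of -1 and 1. Most of the 240 points, those with Rad21 changes beyond -1 or 1 included, lie within the grey lines of the Ctcf axis. On that axis 15 genes pass the rule. The genes past it in the same direction in both are 4933402E13Rik and Prickle3, the latter listed at 0 with dTAG in both.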

How the data were processed

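Polyadenylated RNA was made into Smart-seq2 libraries, per the labels. Tools in the submitters' processing notes are StringTie 2.1.1, HISAT2 2.2.0 and Trim Galore 0.6.4, with build mm9, and no source used here says how reads were given to an allele. What the authors deposited are FPKM values of X-linked genes, merged over the samples of a treatment per the file headers. The planned limma test, which needs a column per sample, was not run. The Ctcf columns were matched to their group by the deposited name, which holds Ctcf degron as the sample titles do. From these values, log2(FPKM + 0.5) changes and Xi shares were computed for genes with a mean of 1 FPKM or more. The members and the 18 gene lists, which overlap, were chosen with earlier results of these data known. Named were the 10 largest rises and falls per allele past the rule, genes that went to or from a listed 0 on Xa, the 8 largest share gains and losses at 5 FPKM or more in both columns (7 losses were found), Xist, Tsix, Smc1a, Stag2, Hdac8, Kdm5c, Kdm6a, Eif2s3x, Ddx3x, Rlim, and 2 to 4 members of a list. Other named genes were chosen after their values were seen. Gene order came from RefSeq GRCm38.p6, and no coordinate was converted from mm9. Near-identical copies were sought with minimap2 2.31 among GENCODE M21 transcripts from chromosomes other than the X, at 95% identity over 50% of the transcript or more, and 22 of 246 genes with a transcript had one. Overlapping neighbours such as Dkc1 and Mpp1, Cstf2 and Nox1, or Ccdc22 and Foxp3 cannot be separated without strand. Scripts ran in Python 3.11.15 with pandas 2.3.3, numpy 2.4.6 and, for plots, matplotlib 3.10.9.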

Additional observations from a re-analysis of the deposited data

Results flagged for a closer look

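Mum1l1, a gene of the extraembryonic list, passed the size rule in opposite directions in the Rad21 and Ctcf degron cells. Its Xa level went from 7.71 to 2.81 FPKM with dTAG in Rad21 degron cells, a change of -1.31, and from 1.78 to 4.42 FPKM in Ctcf degron cells, a change of 1.11. Each table gives 1 merged column per treatment, so the difference was not tested.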

How the results depend on the processing

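No paired analysis was possible because the columns are merged over replicates, and for the same reason no replicate could be left out. Of 135 genes at a mean of 5 FPKM or more, 7 rose on Xa and 27 fell, beside 16 and 37 of 247. At equal median Xa level 27 of 247 rose and 19 fell. Genes risen on Xi numbered 18 with a pseudocount of 0.1, and 17 both at equal median level and when centred on the median Xa change. Genes fallen on Xi numbered 16 with a pseudocount of 0.1, 3 with a pseudocount of 1 and 4 when centred. At 5 FPKM or more in both columns, which leaves 114 genes, 16 with DMSO and 18 with dTAG had a share of 10% or more. Of these 114, 8 gained 10 points and 1 lost as much. With a share rule of 20%, 9 gained, 1 lost, and the median share difference was 4.24 points, and with 5% 10 genes lost. Under the other alternatives run, these counts stayed within 1.5 times of the reported ones. Counts were compared, not shares of the genes tested, which numbered 389 with no filter. Some list medians on Xa changed sign. When centred, they were 0.17 for noncoding RNA, 0.000455 for cohesin, 0.0792 for mitochondria, 0.12 for lysosome, 0.15 for extracellular matrix and 0.00541 for housekeeping genes. At 5 FPKM or more, they were -0.11 for the X inactivation centre, 2.33 for noncoding RNA and -0.53 for the Armcx list, the last from 1 gene. Centring subtracts the median Xa change of -0.26 from every change, so a list median between that median and 0 changes sign. At 5 FPKM or more the lists hold fewer genes, and other causes of the sign changes there were not tested. Of 38 changes of named genes, 0 changed sign in 5 alternatives, and at most 7 no longer passed the rule, with a pseudocount of 1. Depth is unknown and limits low Xi values most.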
